A study of Mus musculus with 41 samples.

Results

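Serpins are a large family of protease inhibitors, and the family was followed here in the lungs and livers of mice that inhaled titanium dioxide nanoparticles (nanoTiO2). Every spot of the mRNA arrays, control spots left out, was taken whose gene name begins with Serpin. This gave 73 probes for 54 genes, out of 41174 probes and 27962 gene names on the arrays. The exposed mice were female C57BL/6 mice (C57BL/6BomTac in the study's methods) that breathed air containing 40 mg/m3 of surface-coated nanoTiO2 for 1 hr per day on 11 days in a row. The control (air exposed) mice were females of that strain that breathed filtered air on the same schedule, and all mice were killed 5 days after the last exposure. The labels give no age in weeks, and per the study's methods these adults had been time-mated but had not conceived. Lung RNA was measured in 7 exposed and 6 control mice, and liver RNA in 7 exposed and 8 control mice, with 1 mouse on each array. Of these, 6 exposed and 6 control mice gave both tissues. RNA came from small pieces of lung and liver, so that fewer cells of a type and less RNA per cell cannot be told apart in any value below.

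A serpin exposes a loop that looks like a substrate to its target protease. The protease cuts the loop, the serpin changes its shape, and both proteins stay locked together in an inactive complex. Hepatocytes release many serpins into the plasma, among them the antitrypsins that restrain neutrophil elastase, antithrombin and heparin cofactor II that restrain thrombin, and alpha-2-antiplasmin that restrains plasmin. Serpins of clade B stay inside cells, where they guard leukocytes and epithelia against their own granule proteases. A few members inhibit nothing and serve as hormone carriers or collagen chaperones. In the lung the family is best known from inherited lack of alpha-1-antitrypsin, which leads to emphysema.

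In the mouse the family lies in a few clusters of duplicated genes. On the arrays 19 of the 54 genes lay on chromosome 12, where the antitrypsins and antichymotrypsins sit, 14 on chromosome 1 and 12 on chromosome 13. The copies within a cluster are so alike that a probe may read its neighbors as well. The probe listed under Serpina1d, for example, carries the identifiers of 3 RefSeq transcripts and that under Serpina1e the identifiers of 4, so that a value given for a Serpina1 gene is not certain to belong to that copy. The likeness extends to the promoters, which are shown for this pair of clustered liver genes and for the 2 genes on which the lung results turn. The windows of 300 bases end a short way past the transcription start, are from RefSeq on build GRCm38.p6 and read 5′ to 3′ along the gene. In the first pair the capitals mark the letters GTTAAT, of the type that the liver factor HNF1 reads.

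Serpina1b, chr12:103738140-103738439, minus strand: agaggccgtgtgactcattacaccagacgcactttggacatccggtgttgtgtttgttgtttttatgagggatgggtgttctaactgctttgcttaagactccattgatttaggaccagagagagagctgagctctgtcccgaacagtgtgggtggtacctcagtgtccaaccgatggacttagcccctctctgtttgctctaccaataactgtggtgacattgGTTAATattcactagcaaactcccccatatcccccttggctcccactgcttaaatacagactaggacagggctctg
Serpina1d, chr12:103773584-103773883, minus strand: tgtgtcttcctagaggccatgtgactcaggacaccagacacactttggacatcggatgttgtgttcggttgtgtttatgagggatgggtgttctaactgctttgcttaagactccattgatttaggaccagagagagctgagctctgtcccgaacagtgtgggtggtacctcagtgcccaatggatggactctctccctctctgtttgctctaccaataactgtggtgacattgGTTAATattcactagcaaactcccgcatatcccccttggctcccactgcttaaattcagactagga

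The longest run that both windows share without a break is 64 bases. For the 2 genes of the lung results the windows are as follows, with capitals for the only match to a searched motif, of the type GGGNNTTTC that NF-kB reads.

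Serpina3n, chr12:104406458-104406757, plus strand: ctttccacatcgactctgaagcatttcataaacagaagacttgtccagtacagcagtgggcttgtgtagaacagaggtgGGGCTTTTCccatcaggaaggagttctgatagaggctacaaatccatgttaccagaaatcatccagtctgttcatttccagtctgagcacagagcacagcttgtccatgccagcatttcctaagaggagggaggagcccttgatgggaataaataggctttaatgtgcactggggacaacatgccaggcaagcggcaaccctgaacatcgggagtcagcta
Serpind1, chr16:17331121-17331420, plus strand: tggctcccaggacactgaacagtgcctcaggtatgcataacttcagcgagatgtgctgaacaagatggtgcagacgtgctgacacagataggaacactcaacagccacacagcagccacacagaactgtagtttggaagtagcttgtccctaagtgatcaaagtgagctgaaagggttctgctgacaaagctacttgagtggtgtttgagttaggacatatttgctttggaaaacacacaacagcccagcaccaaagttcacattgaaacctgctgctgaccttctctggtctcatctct

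No stretch longer than 9 bases is common to these 2 windows. RefSeq windows were at hand for 44 of the 54 genes, 52 windows in all, and were searched on both strands. The letters GTTAAT stood in 19.2% of the 52 Serpin windows and in 7.1% of all 32851 windows. The type TTGCNNAA, read by C/EBP factors, stood in 30.8% of the Serpin windows and 10.8% of all, and the type TTCNNNGAA, read by STAT factors, in 19.2% and 8.3%. The NF-kB type stood in 3.85% and 4.36%. These shares are descriptions, since windows of duplicated genes repeat each other, and a match is not a binding site.

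Each value below is the log2 ratio of the mouse's RNA (Cy5) over a common reference RNA pooled from mouse cell lines (Cy3), so that a ratio compares mice for 1 probe and not 1 gene with another. A gene with 2 probes, as 19 of the 54 had, is reported by the brighter one. By the scanner software's own call, 61.3 to 67.5% of the spots of a lung array and 55.1 to 70.5% of those of a liver array were well above background. Exposed mice were always at array positions 1 and 2 of a slide and controls at positions 3 and 4, so that exposure and position cannot be told apart. Control liver 32 stood apart in neutrophil markers, with a mean log2 ratio of 2.68 where the other control livers were at 0.27 to 0.84, and exposed lung 20 did so in macrophage markers. Lung arrays had alveolar type 2 markers at 2.81 to 3.05 and liver arrays hepatocyte markers at 5.49 to 6.04, as their labels say.

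By the reported probe, 20 of the 54 Serpin genes were well above background on all 28 arrays, 25 on every lung array and 28 on every liver array. The 8 genes Serpina1f, Serpina3a, Serpina5, Serpinb3a, Serpinb3d, Serpinb7, Serpinb9b and Serpinb9c were above it on no array. Serpina10 and Serpina11 were read on every liver array and no lung array, and Serpinb10 on every lung array and no liver array. The dimmer Serpina10 probe, however, was well above background in 2 of 6 control and 4 of 7 exposed lungs, and the dimmer Serpinb10 probe in 1 of 7 exposed livers.

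Control lung and control liver differed over much of the family. Plasma serpins were higher in liver, by up to 8 log2 units, and the collagen chaperone Serpinh1 and several clade B members were higher in lung. With limma and adjustment over all probes, 29 Serpin probes (24 genes) were higher in liver and 15 (12 genes) higher in lung at an adjusted p under 0.05, or 39.7% and 20.5% of the 73. Over all probes 28.4% were higher in liver and 29.7% higher in lung. The liver count includes probes that were well above background on no array, such as a probe of Serpina5 and a probe of Serpinb9g. Slides, scan and scanner software also differed between the tissues, so that these cannot be told apart from tissue.

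**Figure D1:**
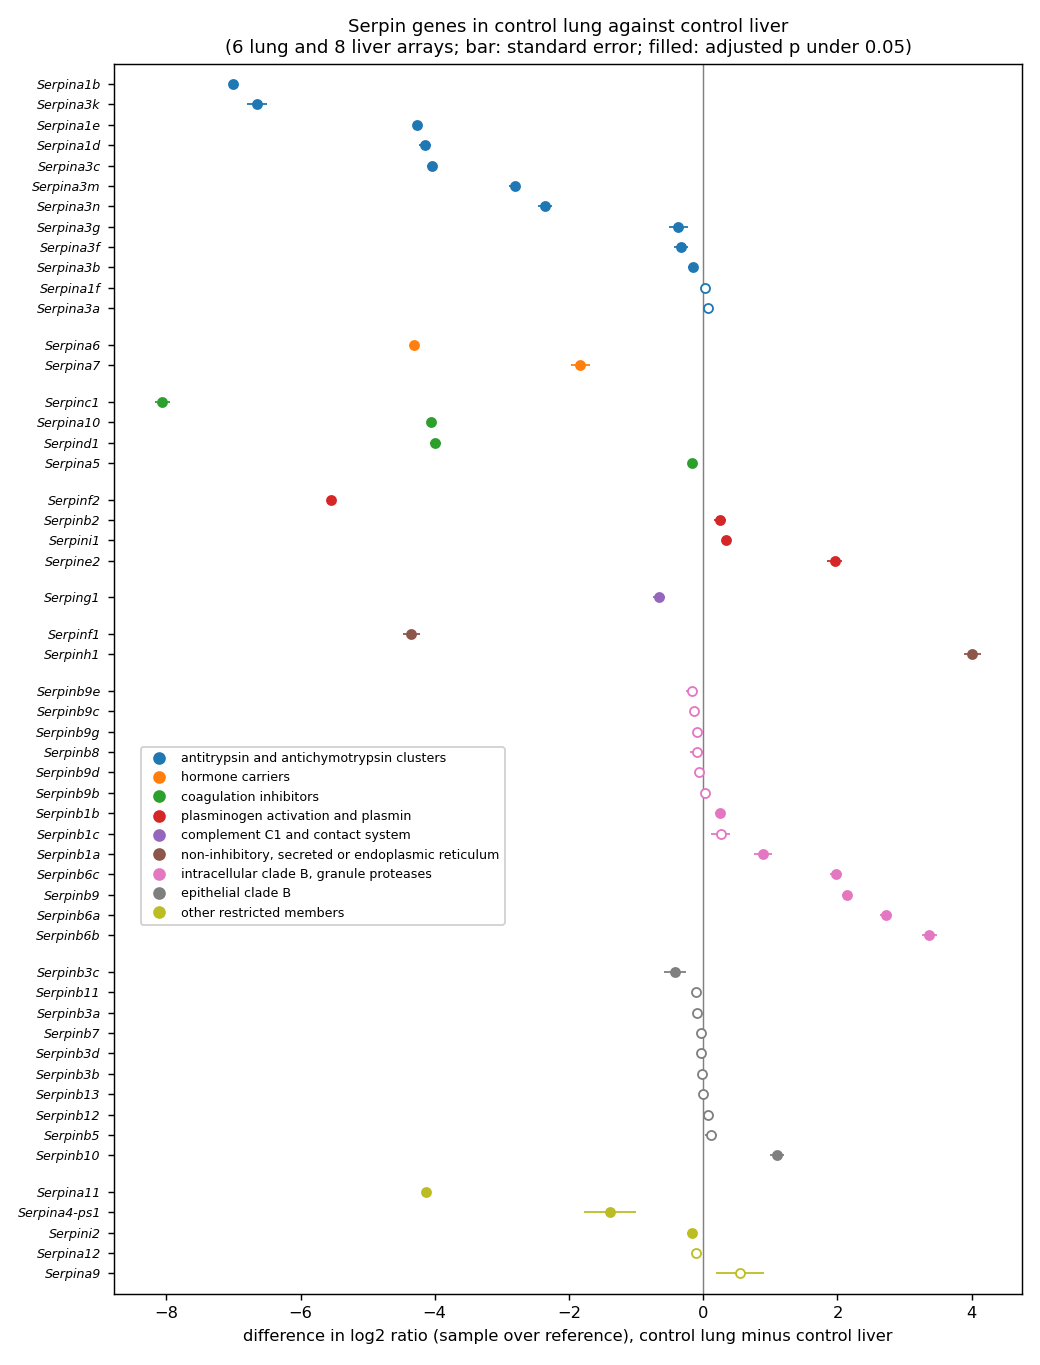
Difference in log2 ratio between control lung (6 arrays) and control liver (8 arrays) for the reported probe of the Serpin genes, grouped by role; points are differences, bars standard errors, and filled points have an adjusted p under 0.05. The largest differences are Serpinc1 at -8.06 toward liver and Serpinh1 at 4.01 toward lung, and most genes listed as epithelial clade B lie near 0. For genes not well above background in a tissue, such as Serpina1b and Serpina6 in lung, the point rests on a bound.

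Of the antitrypsin and antichymotrypsin clusters, 11 of 14 probes were higher in liver and 0 in lung, with a median difference (lung minus liver) of -2.58. Serpina1b, an alpha-1-antitrypsin, was at 6.84 to 7.33 (median 7.11) in control liver and -0.05 to 0.21 (median 0.09) in control lung, and 0 of the 6 control lung spots stood well above background. The ranges are far apart, and the lung value is only a bound. The difference in log2 ratio had an adjusted p of 1.8e-20. From the Cy5 channel Serpina1b was at least 1140-fold higher in liver, a figure open to dye bias since no dyes were swapped. Serpina3k, which restrains tissue kallikrein, differed by -6.65 ± 0.15 (standard error). Serpina3n, the mouse counterpart of antichymotrypsin, was at 3.51 to 4.00 in control liver and 0.89 to 1.66 in control lung, a difference of -2.36 ± 0.10. Serpina3g, known from hematopoietic cells, differed by only -0.37 ± 0.14 (adjusted p = 0.034).

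Both hormone carriers were higher in liver. Serpina6, the corticosteroid-binding globulin, was at 4.09 to 4.29 in control liver and -0.26 to 0.05 in control lung, at least 348-fold higher in liver by the Cy5 channel. Serpina7, the thyroxine-binding globulin, was at least 3.57-fold higher in liver on that scale, and its log2 ratio differed by -1.83 ± 0.14 (adjusted p = 4.4e-09).

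Of the coagulation inhibitors, 6 of 7 probes were higher in liver and 0 in lung. Among the 6 was a Serpina5 probe (-0.17) that was well above background on no array. Serpinc1, antithrombin, was at 8.08 to 8.73 (median 8.44) in control liver and 0.05 to 0.75 (median 0.31) in control lung, the largest difference of the family at -8.06 ± 0.11. Serpind1, heparin cofactor II, was at 5.05 to 5.44 and 1.08 to 1.55, a difference of -3.99 ± 0.08, and was well above background on every array of both tissues. Serpina10, the inhibitor of coagulation factor X that works with protein Z, was at least 18.6-fold higher in liver by the Cy5 channel. In log2 ratio its brighter probe differed by -4.06 ± 0.06 and its dimmer one by -3.20 ± 0.13.

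The serpins of plasminogen activation were divided. Serpinf2, alpha-2-antiplasmin, was at 5.57 to 5.94 in control liver and 0.03 to 0.32 in control lung (-5.54 ± 0.06). Serpine2, protease nexin 1, leaned the other way and was at 1.57 to 2.16 in lung and -0.56 to 0.14 in liver (1.96 ± 0.11). Serping1, the C1 inhibitor, was close in the 2 tissues, with 3.95 to 4.28 in lung and 4.50 to 5.05 in liver (-0.66 ± 0.09, adjusted p = 2.8e-06).

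Serpinh1 and Serpinf1, which like the hormone carriers inhibit no protease, went opposite ways. Serpinh1, the collagen chaperone HSP47, was at -0.34 to 0.52 in control lung and -4.16 to -3.53 in control liver, a difference of 4.01 ± 0.13. Serpinf1, pigment epithelium-derived factor, was at -3.66 to -2.59 in lung and 1.23 to 1.51 in liver (-4.35 ± 0.13).

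Of the intracellular clade B serpins, 8 of 19 probes were higher in lung and 1 in liver. That higher in liver was the dimmer Serpinb9g probe (-0.15), well above background on no array. Serpinb6b differed by 3.37 ± 0.11, Serpinb6a by 2.72 ± 0.09 and Serpinb6c by 1.98 ± 0.09. The dimmer Serpinb6a probe differed by -0.04 (adjusted p = 0.63), but it was well above background on no array and so gives no reading of this gene. Serpinb9, which guards cytotoxic cells against their own granzyme B, was at 2.31 to 2.63 in lung and 0.13 to 0.63 in liver (2.14 ± 0.07). Serpinb1a, an inhibitor of neutrophil elastase, was at 0.53 to 0.76 and -0.74 to 0.22 (0.89 ± 0.14). The list of epithelial clade B members is a grouping of genes and does not give the cells that a signal came from. Its members were mostly dim, with 1 of 14 probes higher in lung and 1 in liver. The former was Serpinb10, whose mean log2 ratio was 1.22 in control lung and 0.12 in control liver and whose Cy5 signal was at least 2.49-fold higher in lung. Its dimmer probe, well above background on no control array, differed by -0.04 and was not called.

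The size of the largest tissue differences depended on the channel used. The Cy3 signal, which comes from the same reference RNA on every array, was itself brighter on liver arrays for these genes. For Serpina1b the median raw Cy3 intensity was 49.0 on control lung and 438 on control liver arrays, and for Serpina6 it was 60.2 and 1130. On the Cy5 channel alone the lung minus liver difference was -10.24 for Serpinc1, -10.41 for Serpina3k and -8.93 for Serpinf2, all 3 of which were well above background in 5 or 6 of the 6 control lungs. Each of these was over 2 log2 units larger than in the log2 ratios. The part of the reference channel in the ratios was not tested.

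In the lung, exposed mice had higher mean values than control mice for several Serpin genes, led by Serpina3n and Serpind1, but no Serpin probe passed the adjusted threshold. Over all probes 91 of 41172, or 0.221%, did. At an unadjusted p under 0.05, 9 Serpin probes of 9 genes (12.3%) were higher in exposed mice, against 3.7% of all probes, and 0 were lower, against 3.39%. The 9 include the dimmer probe of Serpinb9 and that of Serpinb3a (0.09), the latter well above background on no array. The brighter Serpinb3a probe differed by -0.03. Every exposed mouse was above every control mouse for 2 of the 73 Serpin probes (2.74%) and for 0.274% of all probes. Those 2 were Serpina3n and Serpind1.

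Serpina3n was at 1.90, 2.03, 1.72, 1.92, 2.06, 1.92 and 2.16 in exposed mice 1, 7, 12, 13, 19, 20 and 23. It was at 1.50, 0.89, 1.66, 1.57, 1.52 and 1.44 in control mice 24, 26, 27, 29, 32 and 34. The groups did not overlap, and control mouse 26 was lowest by a wide margin. The difference was 0.53 ± 0.10, or 1.44-fold (adjusted p = 0.061, and p = 0.000583 by a 2-sided exact permutation test of 7 against 6 arrays, the smallest it can give). Permutation p-values here and below are for single probes and are not adjusted for the choice of these probes among all Serpin probes. The array's probe for this gene lies at chr12:101908030-101908089 of build mm7, plus strand.

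Serpind1 was at 2.39, 1.96, 1.89, 1.94, 1.57, 1.56 and 1.60 in the same exposed mice, and at 1.31, 1.08, 1.32, 1.55, 1.16 and 1.30 in the control mice. Exposed mouse 1 was highest, and the lowest exposed mouse was next to the highest control mouse. The difference was 0.56 ± 0.12, or 1.47-fold (adjusted p = 0.099, exact permutation p = 0.00233). Its probe lies at chr16:16893184-16893243 of build mm7, plus strand.

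Both differences rested on how the values were made. With the background model fitted on all spots, flagged ones included, they were 0.01 ± 0.35 for Serpina3n and 0.03 ± 0.30 for Serpind1, and from the scanner software's own processed signals 0.16 ± 0.12 and 0.24 ± 0.15. Within the 3 slides that held both groups the Serpina3n difference was 0.77, 0.11 and 0.51, and that of Serpind1 0.98, 0.45 and 0.52. Serpina3n passed the threshold without control mouse 26 (0.42 ± 0.07, adjusted p = 0.016), and with slide as a random block (0.52, adjusted p = 0.045). Serpind1 passed with slide as a fixed block (0.68, adjusted p = 0.024) and as a random block (0.59, adjusted p = 0.042).

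**Figure D2:**
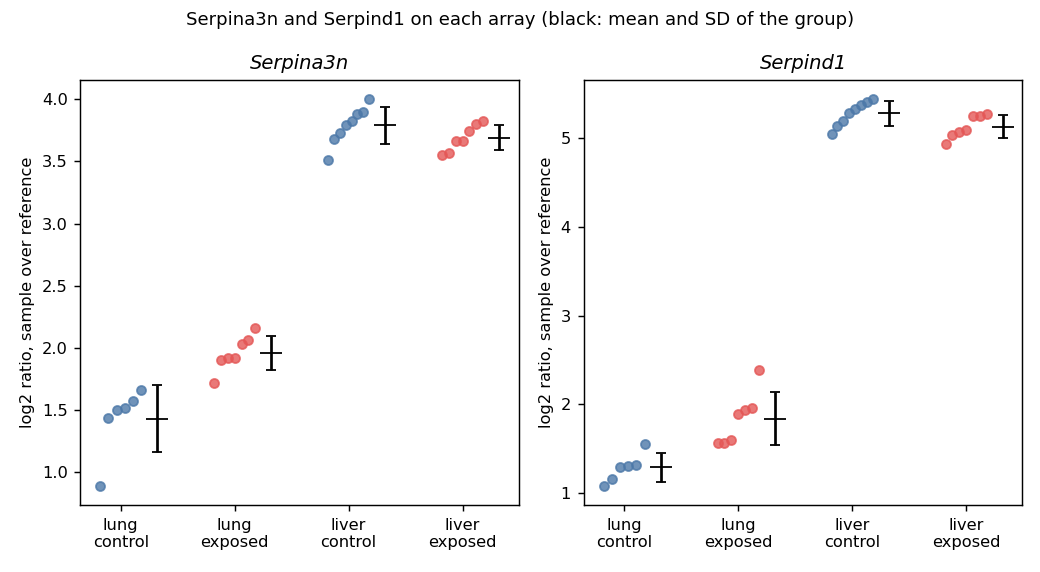
Log2 ratio of Serpina3n (left) and Serpind1 (right) for each mouse, in control (blue) and exposed (red) lung and liver; black bars are the group mean and SD. In lung every exposed mouse lies above every control mouse for both genes, and in liver the groups overlap.

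Other Serpin genes with the lowest unadjusted p in the lung overlapped between the groups. Serpina3c was at 1.36 to 1.82 (median 1.76) in exposed and 1.28 to 1.64 (median 1.41) in control mice, a difference of 0.27 ± 0.08. Serpina3m was at 2.51 to 3.94 (median 2.87) and 2.07 to 2.70 (median 2.35), a difference of 0.56 ± 0.19. Serpina1d was at 1.86 to 3.14 and 1.59 to 2.28 (0.57 ± 0.20), Serpina3g at 1.23 to 2.08 and 1.14 to 1.40 (0.29 ± 0.12), and Serpinf2 at 0.20 to 1.80 and 0.03 to 0.32 (0.50 ± 0.21). For Serpina1d the channels differed, with 1.39 ± 0.58 on Cy5 alone and 0.82 ± 0.38 on Cy3, the reference. The part of the reference channel in its ratio was not tested. The dimmer of the Serpinb9 probes differed by 0.20 ± 0.06 and the brighter one by 0.08 ± 0.08. Adjusted p-values of these genes were 0.34 or above. The highest Serpina3g value was that of exposed mouse 20, whose lung array was also highest in macrophage markers (mean log2 ratio 2.99, with 2.32 to 2.64 in the other lungs). Without that mouse the Serpina3g difference was 0.20 ± 0.09. The part of macrophage RNA in it was not tested. With the background model fitted on all spots, Serpina3c turned to -0.18, Serpina3m to -0.07 and Serpinb9 to -0.28.

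By role, the antitrypsin and antichymotrypsin probes had a median difference of 0.34 in lung, with 13 of 14 above 0, where the median over all probes was 0 and over the 73 Serpin probes 0.04. The other larger groups stood near 0: the intracellular clade B serpins had a median of 0.02 over 19 probes and those listed as epithelial 0.02 over 14. Serpinb1a (-0.05 ± 0.05), Serpinb6a (0.05 ± 0.06), Serpine2 (-0.01 ± 0.11), Serping1 (-0.02 ± 0.07) and Serpinh1 (-0.06 ± 0.13) had differences smaller than or near their standard errors. Neutrophil markers had a median difference of -0.33 in lung, with 0 of 5 above 0 and none called, and macrophage markers one of 0.17 with 1 of 6 probes called.

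Several plasma serpins were highest on the same 3 lung arrays. Serpinc1 was at 3.20, 1.69 and 1.68 in exposed mice 1, 13 and 19 and between 0.15 and 0.37 in the other 4 exposed mice, against 0.05 to 0.75 in controls. Serpina3k was at 4.27, 1.54 and 2.36 in those 3 mice and between 0.43 and 0.93 in the other exposed mice, and Serpina1b at 2.17, 0.54 and 1.04 and between 0.02 and 0.24. The same 3 arrays were the highest lung arrays for 8 of the 73 Serpin probes (7 genes, 11%) and for 0.756% of all probes. The 7 genes were Serpina1b, Serpina1d, Serpina1e, Serpina3k, Serpina6, Serpinc1 and Serpinf2. All had a difference of over 4 log2 units toward liver between the control tissues.

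Hepatocyte markers were highest on these arrays too. The mean log2 ratio of the 11 markers was 2.59, 1.95 and 2.08 in exposed mice 1, 13 and 19, 0.96 to 1.39 in the other exposed mice and 0.69 to 1.32 in controls. Their summed Cy5 signal ranged from 3580 to 19700 in exposed and 2800 to 4830 in control lungs, and from 1040000 to 1360000 in liver. Between 7 and 11 of the 11 were well above background on exposed arrays and 6 to 8 on control arrays, and none was called between the groups (median difference 0.51, 11 of 11 above 0). Albumin, listed as Alb1, reached 4.02 in exposed mouse 1 and 0.84 to 2.70 in controls. The part of hepatocyte RNA in the lung values was not tested.

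Without the 3 arrays, the 18 probes (14 genes) that were over 2 log2 units higher in control liver had a median lung difference of 0.07, with 15 of 18 above 0, compared with 0.45 and 17 of 18 on all arrays. The 3 arrays were chosen after seeing the data as the lung arrays highest in hepatocyte markers. They were also the highest for 8 Serpin probes, so a lower median without them was built into the choice. The Serpina3n difference was 0.53 ± 0.13 without the 3 arrays (adjusted p = 0.53) and the Serpind1 difference 0.47 ± 0.10 (adjusted p = 0.25). Serpina3m was at 0.29 ± 0.11.

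**Figure D3:**
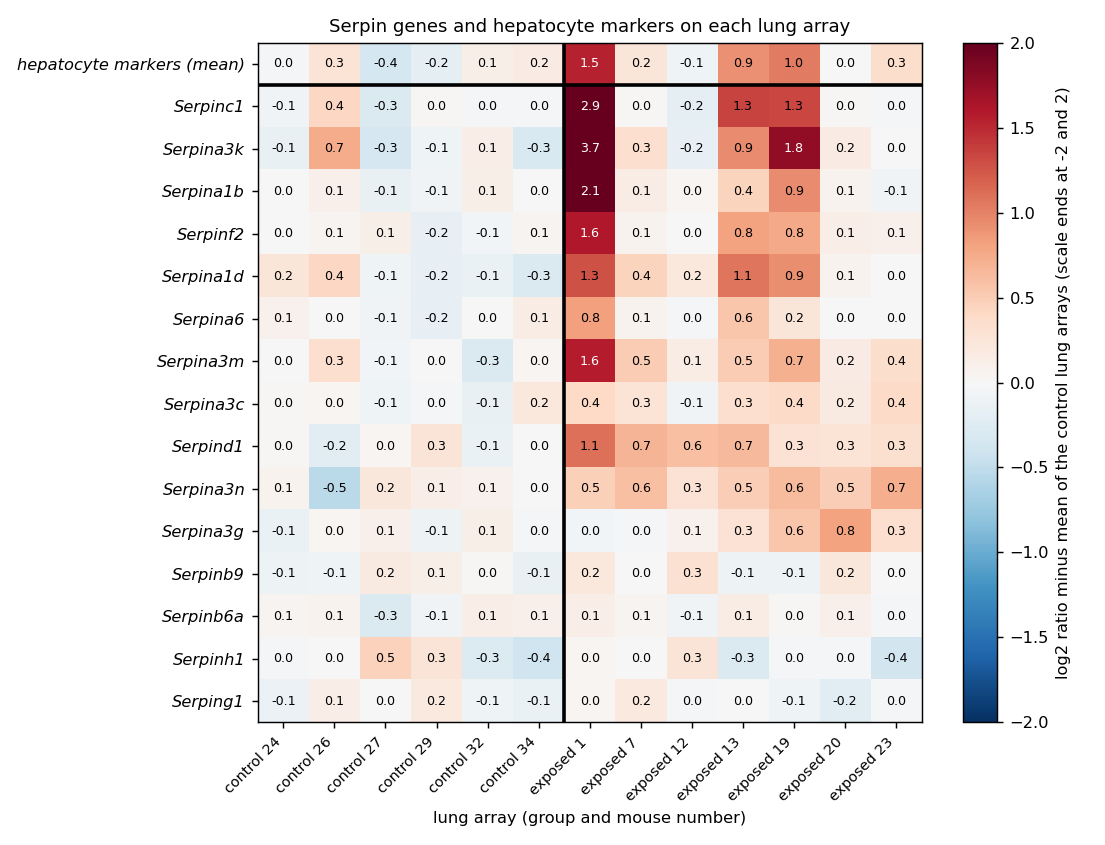
Log2 ratio on each lung array minus the mean of the 6 control lung arrays, for the mean of the hepatocyte markers (top row) and named Serpin genes; columns are mice and the color scale ends at -2 and 2. Exposed mice 1, 13 and 19 are high in the top row and in the liver-type serpins from Serpinc1 to Serpina6. Serpina3n, Serpind1 and Serpina3m are above the control mean in all 7 exposed mice, and Serpinf2 is above or at it.

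In the liver no Serpin probe passed the adjusted threshold, and neither did any of the 41174 probes (0%). At an unadjusted p under 0.05, 11 Serpin probes of 10 genes (15.1%) were lower in exposed mice, against 1.55% of all probes, and 2 (2.74%) were higher, against 0.882%. Those 2 were Serpina1f and Serpinb5, and neither was well above background on any liver array. All adjusted p-values were 1.

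Serpinf2 was at 5.31 to 5.63 (median 5.52) in exposed and 5.57 to 5.94 (median 5.70) in control livers. The ranges overlapped only slightly, and the difference was -0.23 ± 0.06 (exact permutation p = 0.000622). Serpina1d was at 5.61 to 5.99 and 5.89 to 6.24 (-0.23 ± 0.06, exact permutation p = 0.00357), Serpina1b at 6.57 to 7.03 and 6.84 to 7.33 (-0.23 ± 0.08) and Serpina3m at 4.82 to 5.12 and 5.05 to 5.36 (-0.17 ± 0.06). Serpina1f, at a difference of 0.12 ± 0.04, was among the lowest p-values without being well above background on any array. The fold of each of these was 1.17 or less.

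Of the 18 liver-high probes, 17 lay below 0 in exposed livers, with a median of -0.15. Hepatocyte markers also lay below 0, 11 of 11, with a median of -0.21 and none called. The channels differed in this. On Cy5 alone the 18 probes had a median of -0.02 with 7 above 0, and on Cy3, the reference, a median of 0.10 with 17 above 0. Serpinf2 differed by 0.01 ± 0.05 on Cy5 and by 0.24 ± 0.05 on Cy3 (unadjusted p = 0.00027). With median centring the 18 probes had a median of 0.04, and with the background model on all spots 0.06, each with 11 above 0. Under these 2 settings Serpina3m turned to 0.03 and Serpina1b to 0.07, respectively.

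Lung and liver were then compared for the effect of exposure itself. By a limma interaction over all 28 arrays, the exposed minus control difference was larger in lung than in liver for 2 Serpin probes of 73 (2.74%), Serpina3n and Serpind1, and 60 of 41172 probes (0.146%) were called in all. Serpina3n had a lung minus liver difference of 0.63 ± 0.13 (0.53 in lung and -0.10 in liver, adjusted p = 0.024). Serpind1 had one of 0.70 ± 0.14 (0.56 and -0.15, adjusted p = 0.024). With the mouse as a replicate block, in the 12 mice with both tissues, the values were 0.62 and 0.68 with adjusted p-values of 0.19 and 0.10, and no Serpin probe was called. With the background model fitted on all spots they were -0.55 ± 0.54 and -0.02 ± 0.32.

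In liver Serpina3n was at 3.55 to 3.82 (median 3.66) in exposed and 3.51 to 4.00 (median 3.80) in control mice, a difference of -0.10 ± 0.07. Serpind1 was at 4.93 to 5.27 (median 5.09) and 5.05 to 5.44 (median 5.31), a difference of -0.15 ± 0.07. The groups overlapped for both genes. Next in order of p were Serpina3c (0.47 ± 0.12), Serpina3m (0.74 ± 0.20) and Serpina1d (0.79 ± 0.21), with adjusted p-values of 0.23, 0.29 and 0.31.

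**Figure D4:**
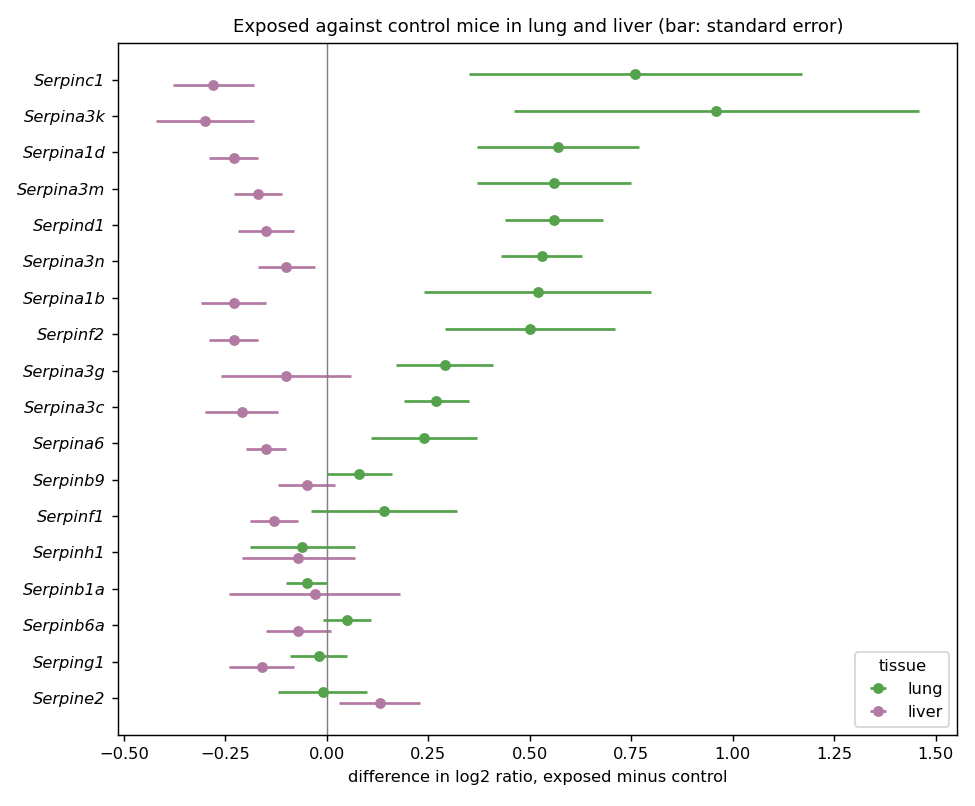
Exposed minus control difference in log2 ratio in lung (green) and liver (purple) for named Serpin genes, with standard errors. Plasma serpins such as Serpinc1 and Serpina3k lie above 0 in lung and below 0 in liver with wide bars in lung, and members such as Serpinh1 and Serpinb6a lie near 0 in both.

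Proteases and other inhibitors that work beside the serpins were read from fixed lists. Of the protease targets, 29 genes with 43 probes, 2 probes were higher in exposed lung and 0 lower, where 0.221% of all probes were called in either direction. Both belonged to C1r, a complement protease that Serping1 inhibits, with differences of 0.30 ± 0.05 and 0.39 ± 0.07 (adjusted p = 0.023 and 0.048). Of the other protease inhibitors, 31 genes with 46 probes, 2 were higher and 0 lower: Itih4, a plasma inhibitor of the inter-alpha-trypsin family (0.54 ± 0.07, adjusted p = 0.0026), and Timp1, an inhibitor of matrix metalloproteinases (0.77 ± 0.11, adjusted p = 0.0040). Other Timp1 probes differed by less, 0.28 ± 0.06 and 0.37 ± 0.08, and were not called (adjusted p = 0.061 and 0.077). Of the cofactors and receptors, 8 genes with 12 probes, none was called. Median differences of the lists were 0.05, 0.05 and 0.02, where that of all probes was 0. In liver none of the 3 lists had a called probe. By the interaction, the exposure difference was larger in lung than in liver for Itih4 (0.64 ± 0.09), the Timp1 probe called in lung (0.76 ± 0.15) and both probes of C1s, the partner protease of C1r (0.44 ± 0.09 and 0.54 ± 0.11).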

How the data were processed

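The authors hybridized Cy5-labeled RNA of each mouse with Cy3-labeled universal mouse reference RNA on 4-array slides, with no dye swap, and deposited the scanner software's output (version 9.5.3.1 for lung and 10.1.1.1 for liver), which holds intensity values that are not normalized. The authors also deposited a processed table of log2 ratios. Its columns correlated at 0.994 or above with uncorrected, loess-normalized ratios, had medians near 0 and ran in the same direction. It served as an alternative.

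Median intensities were corrected with normexp (offset 50), whose model was fitted without spots flagged as outliers, and normalized by loess within each array in limma 3.58.1 (R 4.3.3). Spots with a feature outlier flag, which were 1 value of the Serpin probes (Serpinb9e in control liver 24), were left out. Replicate spots were averaged per probe. Comparisons used lmFit and eBayes, with Benjamini-Hochberg adjustment over all 41174 probes (2 of them without values in lung) and a threshold of 0.05. The study's methods used LOWESS and a moderated F test within tissues. Single probes were also tested by 2-sided exact permutation, whose smallest p is 0.000583 in lung, 0.000155 in liver and 0.000333 between tissues. Channel values were scaled with Aquantile after loess. A probe well above background on no array of a group was given as a bound from Cy5, against the lowest signal well above background or its own signal, whichever was higher. The number of arrays limits the precision.

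The Serpin genes, roles and lists were chosen with earlier results of these data known. Named were the genes called, the 8 lowest p-values in lung and 5 in liver, well known members of each role, and the 6 largest tissue differences each way. The marker lists were those of hepatocytes, alveolar type 2, club and ciliated cells, endothelium, neutrophils, macrophages, mast cells, mesothelium, cytotoxic lymphocytes, platelets and fibroblasts. Of these, only the macrophage list had a called probe between exposed and control mice, in lung. Mouse numbers pair lung and liver of the same animal in 12 mice; the deviations of the 2 tissues correlated at -0.069 to 0.214. Alternatives were the background model and correction, the software's processed signals, median centring, the deposited table, a filter on dim probes, 1 value per gene, slide or mouse as a block, each array left out, and, chosen after seeing the data, the lung without 3 arrays and the Cy5 channel alone for exposure. The tests were checked on simulated data. The miRNA arrays were not used here, and the values of 1 member, which is within the counts over the family, are not reported here. Figures were drawn with matplotlib 3.10.9.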

Additional observations from a re-analysis of the deposited data

Results flagged for a closer look

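Among 96 sets of values (24 named genes in 4 groups), 7 single values stood far from the others of their group by Dixon's criterion, which chance gives in about 1 of 20 sets. In lung, Serpina3m was at 3.94 in exposed mouse 1, with the nearest other value at 3.07, and Serpine2 was at 1.50 in that mouse, with the nearest at 1.87. Serpina3n was at 0.89 in control mouse 26 (nearest 1.44) and Serpinb5 at 0.12 in control mouse 24 (nearest -0.33). In liver, Serpinb9 was at 0.52 in exposed mouse 13 (nearest 0.29), Serpinf2 at 5.31 in exposed mouse 20 (nearest 5.50) and Serpine2 at -0.56 in control mouse 29 (nearest -0.04). The liver array of exposed mouse 13 was also the highest exposed liver array in macrophage markers, with a mean log2 ratio of 0.53, where control liver 32 was at 0.61. It was the highest of all liver arrays in cytotoxic lymphocyte markers (0.57) and the highest exposed one in neutrophil markers (0.55). The part of these cells in the Serpinb9 value was not tested.

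The exposure effect in lung minus liver, by the interaction term of limma, was called for Serpina3n (0.63, adjusted p = 0.024) and Serpind1 (0.70, adjusted p = 0.024). That fit took the lung and liver arrays of the same mouse as independent. With the mouse as a replicate block neither gene was called. In lung 7 of 7 exposed mice lay above every control mouse for both genes, as they did for 0.274% of all probes. Adjusted p-values over the alternatives ran from 0.016 to 1 for Serpina3n and from 0.014 to 1 for Serpind1, with each array left out counted apart.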

How the results depend on the processing

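Of 724 differences of single genes recomputed under an alternative, 683 kept their direction and their side of the threshold, or moved by less than the spread of the replicates. The number of Serpin probes called in lung, 0 of 73, was 1 when dim probes (not well above background on 50% or more of a group's arrays) were dropped, 1 with slide as a fixed block, 2 with slide as a random block and 0 to 1 with each array left out (1 without control mouse 26). In liver it was 0 under every alternative run. Between control tissues, 44 were called, with 32 to 50 under the alternatives and 38 to 46 with each array left out. The lung minus liver effect called 2 Serpin probes. It called 0 with the background model fitted on all spots, the software's processed signals, median centring or Cy5 alone, 1 with no background correction, the deposited table or the 3 lung arrays left out, and 0 to 2 with each array left out (1 without exposed lung 13 or 23 or control lung 26 or 32, and 0 without exposed liver 12 or 20).

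With the mouse as a replicate block, the lung minus liver effect called 0 Serpin probes and the tissue comparison 36. Exposed and control mice are different animals, so lung and liver taken singly have no such block.

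With the background model on all spots the sign turned in lung for Serpina3c (-0.18), Serpinb9 (-0.28) and Serpina3m (-0.07), in liver for Serpina1b (0.07), and in the lung minus liver effect for Serpina3n (-0.55) and Serpind1 (-0.02). It turned in liver for Serpina3m with median centring (0.03) and for Serpinf2 with Cy5 alone (0.01). On some arrays the model on all spots put the mean background far below 0. It was -429 in Cy3 of exposed lung 1 and -609 in Cy5 of exposed lung 23. Without flagged spots these were 1.94 and -4.88. The cause of the turned signs was not tested. Signal over background limits the 8 genes read on no array.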
